A study of Mus musculus with 8 samples.

Results

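Broad autosomal domains of H3K27me3 are long stretches of chromatin on which Polycomb marking runs on across and beyond genes. The 706 domains described here were chosen by peak length: every peak of at least 10000 bp on chromosomes 1 to 19 in any of the 4 deposited peak lists was taken, and those that overlapped were merged. They are 706 of the 46604 autosomal regions that all peaks of the 4 lists merge into. The cells were lines of neural stem cells grown from female mouse embryos at E14.5, of mixed C57BL/6, 129 and Castaneus background. All lines carried 1 deleted allele of Smchd1, and their maternal X, of 129 origin, carried the deltaA allele of Xist, while their paternal X was of Castaneus origin. The del/del cells had been transduced with the MSCV-Cre-puro retrovirus, which removes the conditional (floxed) Smchd1 allele, put under puromycin 24 hours later and harvested 7 days after transduction. The del/fl cells kept the floxed allele and were untransduced, so deletion and transduction with selection cannot be told apart. There were 2 H3K27me3 libraries per genotype. Each line was split before transduction, and the labels do not say which libraries share a line or whether replicates are separate embryos. The p-values therefore cover only the spread among these samples, which may be technical. Nothing in the peak lists checks the deletion of Smchd1.

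Polycomb repressive complex 2 trimethylates lysine 27 of histone H3, and the mark keeps genes of other lineages silent in a stem cell. In most mammalian cells it sits as short patches at CpG-rich promoters, and it widens into long domains over homeobox clusters and other loci of developmental transcription factors. SMCHD1 is a chromatin protein best known for its part in silencing the inactive X chromosome, and it also acts at a few autosomal gene clusters, among them imprinted and Hox loci.

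The promoters inside the domains are shown first, because CpG-rich promoters are where the mark is known to be laid down, and the domains differ in whether they hold one. The 250 bases before the annotated start of 6 genes are given 5′ to 3′ on the gene's strand, from RefSeq (GRCm38.p6, the build also named mm10), with every CpG dinucleotide in capitals. Six6 and Hand2 mark long domains over a transcription factor gene, Neurod1 and Fgf9 lie in domains that were less covered in del/del, and Tfap2d and Gm21188 lie in domains that were more covered in del/del. Tfap2d was chosen after its values were seen. The 4 genes of the first kinds have 17 (Six6, chr12:72939632-72939881, + strand), 15 (Hand2, chr8:57320733-57320982, + strand), 22 (Neurod1, chr2:79456637-79456886, − strand) and 11 (Fgf9, chr14:58072436-58072685, + strand) CpGs in this stretch. The most upstream of 3 listed Tfap2d starts has 5 (chr1:19102772-19103021, + strand), and Gm21188 has 0 (chr13:120052205-120052454, − strand). Counted over a longer stretch that runs past the start, the 3 Tfap2d starts have 5, 5 and 10 CpGs, and Fgf9 has 12. Gm36079, in the same domain as Gm21188, has 10 in that longer stretch. The 6 printed sequences are examples and do not compare the kinds of domain.
Six6: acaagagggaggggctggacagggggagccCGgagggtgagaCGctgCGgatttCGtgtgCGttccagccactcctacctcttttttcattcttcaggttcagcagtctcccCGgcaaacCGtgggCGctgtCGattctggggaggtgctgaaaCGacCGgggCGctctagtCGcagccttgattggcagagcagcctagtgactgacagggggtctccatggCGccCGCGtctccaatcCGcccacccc
Hand2: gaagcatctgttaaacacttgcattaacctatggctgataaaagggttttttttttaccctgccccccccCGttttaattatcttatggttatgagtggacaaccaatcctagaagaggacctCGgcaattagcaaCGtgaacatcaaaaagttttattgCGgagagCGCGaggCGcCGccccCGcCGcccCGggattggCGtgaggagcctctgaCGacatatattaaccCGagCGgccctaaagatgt
Neurod1: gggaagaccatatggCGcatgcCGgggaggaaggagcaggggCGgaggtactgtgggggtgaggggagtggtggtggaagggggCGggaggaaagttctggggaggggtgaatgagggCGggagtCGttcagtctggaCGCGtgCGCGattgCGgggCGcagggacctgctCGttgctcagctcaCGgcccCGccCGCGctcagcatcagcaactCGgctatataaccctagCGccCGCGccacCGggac
Fgf9: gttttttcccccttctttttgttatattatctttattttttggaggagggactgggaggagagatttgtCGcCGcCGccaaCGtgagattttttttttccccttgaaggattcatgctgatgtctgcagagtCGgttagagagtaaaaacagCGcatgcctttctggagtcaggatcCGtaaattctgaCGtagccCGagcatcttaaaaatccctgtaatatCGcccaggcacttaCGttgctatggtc
Tfap2d: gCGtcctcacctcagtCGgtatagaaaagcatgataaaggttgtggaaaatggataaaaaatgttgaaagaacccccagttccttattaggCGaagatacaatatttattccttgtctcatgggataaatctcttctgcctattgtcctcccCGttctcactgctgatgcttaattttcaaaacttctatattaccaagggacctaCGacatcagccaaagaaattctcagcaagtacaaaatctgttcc
Gm21188: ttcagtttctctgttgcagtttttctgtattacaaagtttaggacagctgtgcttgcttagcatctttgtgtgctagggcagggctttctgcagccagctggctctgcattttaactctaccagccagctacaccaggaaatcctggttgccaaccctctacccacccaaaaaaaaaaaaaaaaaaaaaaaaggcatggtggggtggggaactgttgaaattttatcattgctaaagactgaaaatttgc

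Over all 362 listed starts of the 317 protein-coding genes that start inside a domain, the median G+C content of the 300 bases around the start (250 before and 50 after) was 61.5%, against 57.0% for the 20084 starts of 16456 autosomal protein-coding genes. The observed number of CpGs over that expected from base composition had a median of 0.69 inside and 0.59 over all. It exceeded 0.6 at 62.2% of starts inside domains and at 48.9% of all starts. The CpG-rich motif CGCG, which reads the same on both strands, was present at least once in 67.1% of starts inside domains and in 50.3% of all. The TATA motif TATAAA, searched on both strands, was in 11.6% and 12.7%. Genes that are not protein-coding started at a median ratio of 0.53 inside domains and 0.25 over all autosomes. These shares are descriptions, and a start may be listed more than once for a gene. A promoter start lay in 343 of the domains, and in 231 of them at least 1 start had a ratio above 0.6.

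The domains were between 10013 and 281466 bp long, with a median of 15564.5 bp, and summed to 15.2 Mb, or 0.618% of the autosomes. Of the 706, 241 were longer than 20 kb, 31 longer than 50 kb and 8 longer than 100 kb. They were densest on chromosome 19, with 4.73 per 10 Mb, and sparsest on chromosome 16, with 0.612 per 10 Mb (6 domains). The 4 longest domains were the 4 Hox clusters, whose homeodomain proteins set position along the body axis. The Hoxc domain (chr15:102849700-103131165) was 281466 bp long, the Hoxa domain (chr6:52142188-52335223) 193036 bp, the Hoxb domain (chr11:96229130-96387064) 157935 bp and the Hoxd domain (chr2:74636360-74790601) 154242 bp. The Hoxa domain held 12 protein-coding genes, the most of any. The next was chr13:119954303-120107841 (153539 bp), which holds Gm36079, Gm21188 and 9 other annotated genes and no known developmental regulator. Then came the domain of Six6, an eye and pituitary homeobox gene (128475 bp), a stretch inside Skap1 beside the Hoxb cluster that holds no protein-coding gene end (112786 bp) and the domain of Pax3, a neural crest and muscle regulator (100646 bp). A stretch inside Skap2, next to Hoxa, was 93202 bp long. A tandem array of 51 annotated 5S ribosomal RNA genes on chromosome 8 spanned 90184 bp. The domains of Nkx2-1, a forebrain and thyroid homeobox gene, and an intragenic stretch of Tenm2, a synaptic adhesion gene, were 76847 and 73917 bp long.

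Inside the domains lay an annotated end of 495 of 20661 autosomal protein-coding genes (2.40%), of 325 of 12408 lncRNA genes (2.62%) and of 20 of 1136 miRNA genes. Among the miRNA genes were Mir10a, Mir10b, Mir196a-1, Mir196a-2 and Mir615 of the Hox clusters. With the whole gene span required inside, the count of protein-coding genes was 235, and with any overlap it was 562. A protein-coding gene end was found in 378 domains, and 302 of these held exactly 1, 64 held 2 and 12 held 3 or more. A further 89 domains held only ends of other genes, 114 lay wholly within a gene, and 125 overlapped no annotated gene.

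Transcription factor families had the largest shares of their genes inside. All 41 Hox and Evx genes and all 5 autosomal Gata genes, regulators of blood, heart and endoderm, lay in a domain. So did 44 of 55 NK-like, Dlx and related homeobox genes (80%), 41 of 53 paired-like, LIM, Iroquois, POU and related homeobox genes (77.4%), 6 of 9 Pax genes, 18 of 27 forkhead genes and 10 of 16 T-box genes. The shares were lower for zinc finger regulators of the Zic, Gli, Prdm and related groups (16 of 36) and for lineage bHLH factors (17 of 39), and only 3 of 15 Sox genes were inside, namely Sox7, Sox14 and Sox17. Against these stands the 2.40% of all autosomal protein-coding genes. The lists were drawn up with earlier results of these data known, so the shares are a description.

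**Figure D1:**
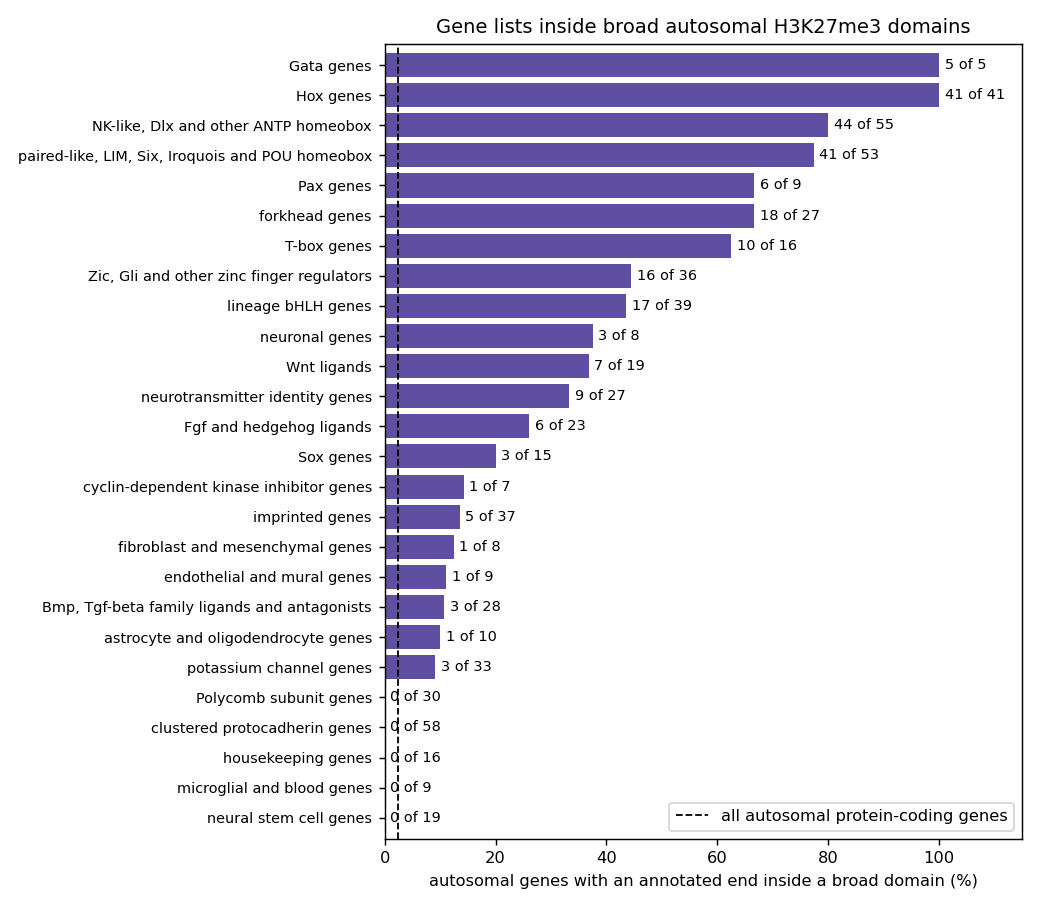
Percent of the autosomal genes of each list that have an annotated end inside a broad H3K27me3 domain, with the counts printed beside the bars and a dashed line at the share of all autosomal protein-coding genes (2.40%). Homeobox, Gata, Pax, forkhead and T-box lists reach 62.5% to 100%, and 5 lists, neural stem cell and housekeeping genes among them, are at 0.

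Examples from the longest domains of each family show how evenly they were covered, where cover is the percent of a domain's length that lies under peaks of any length in a library. Gata4 (chr14:63226525-63277148) was 99.0% and 96.4% covered for del/del against 97.1% and 98.6% for del/fl. Pax3 had 96.3% and 98.2% against 98.6% and 99.96%. Foxa2, a floor plate and endoderm regulator, had 97.9% and 96.4% against 93.2% and 95.2%. Genotypes overlapped at Gata4 and did not at Pax3 and Foxa2, in opposite directions. Tbx3, a limb and heart T-box gene, was covered over 99.5% and 99.6% of its domain for del/del against 87.6% and 94.6% for del/fl. At Twist1, a mesoderm bHLH gene, cover was 84.2% and 91.0% against 96.6% and 96.7%. The domain shared by Zic1 and Zic4, which pattern the dorsal neural tube, had 94.0% and 94.8% against 97.2% and 99.9%. None of these 6 domains passed the test described below (limma, adjusted p from 0.054 to 0.973).

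Signalling genes had smaller shares inside, with 7 of 19 Wnt ligands, 6 of 23 Fgf and hedgehog ligands and 3 of 28 Bmp and Tgf-beta family ligands and antagonists. The Wnt genes were Wnt1, Wnt3a, Wnt4, Wnt6, Wnt8b, Wnt10a and Wnt10b, the Fgf and hedgehog genes were Fgf3, Fgf4, Fgf5, Fgf9, Shh and Ihh, and the Bmp list gave Bmp4, Gdf6 and Gdf7. Genes that set a neuron's transmitter were inside at 9 of 27, among them Slc32a1, the vesicular GABA transporter, Slc17a6 and Slc17a7, vesicular glutamate transporters, and Gad1 and Gad2, which make GABA. Of 37 imprinted genes 5 were inside (Grb10, Igf2, Rasgrf1, Kcnq1 and Dlk1). Potassium channel genes (3 of 33) and the cell cycle inhibitor list (1 of 7, Cdkn2a) held few.

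The defining genes of the labelled cell type lay outside. None of 19 neural stem cell genes, Sox2, Nes and Pax6 among them, had an end in a domain, and none of 16 housekeeping, 30 Polycomb subunit, 9 microglial and blood or 58 clustered protocadherin genes did. Lists of other cell types had members inside: neuronal genes at 3 of 8 (Neurod1, Slc17a7 and Gad1), and astrocyte and oligodendrocyte genes at 1 of 10, the oligodendrocyte precursor receptor Pdgfra, which the fibroblast list (1 of 8) also holds. The endothelial and mural list gave 1 of 9, Flt1. A peak list gives no RNA level. Against 2.40% of all autosomal protein-coding genes, 0 of 19 is near the general share, and the microglial and blood list was also at 0. The absence of broad domains at its defining genes therefore does not check the label of neural stem cells.

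MACS2, the authors' peak caller, used 14064030 and 12819919 tags for del/del, against 13288499 and 11793402 for del/fl. In replicate order, peaks of at least 10000 bp numbered 462 and 556 for del/del against 483 and 618 for del/fl. Of the 706 domains, 352 had such a peak in all 4 libraries, 66 in 3, 106 in 2 and 182 in 1. The replicate 2 library of each genotype contributed most of the last group: del/fl replicate 2 was alone in 101 domains and del/del replicate 2 in 56, against 14 and 11 for the replicate 1 libraries. A long peak in del/fl only, in 1 or both libraries, was found at 149 domains, and in del/del only at 81. In both libraries of a genotype and neither of the other, the counts were 34 for del/fl and 14 for del/del. Every domain nevertheless held at least 1 peak in each library, so none was present in 1 genotype and absent in the other.

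Cover of the summed domain length was 87.0% and 92.5% for del/del against 89.0% and 94.1% for del/fl. The mean was 89.8% ± 3.87 and 91.5% ± 3.67 (SD, n = 2), a difference of -1.79 percentage points, and the genotypes overlapped (exact two-sided permutation test, p = 0.667, where 2 against 2 libraries cannot go below 0.3333). In each genotype the replicate 2 library was the more covered, and the spread within a genotype exceeded the difference between genotypes. The direction depended on the library: without del/del replicate 1 the difference was 0.943 points, and without del/fl replicate 2 it was 0.808. A domain is the union of long peaks of the same lists, so a library whose own peak spans a domain is close to 100% there by construction. With domains chosen from the replicate 1 lists alone and cover read in the replicate 2 lists, the cover of 534 domains was 95.2% for del/del and 95.8% for del/fl. Chosen the other way round, 687 domains were 87.5% and 89.2% covered.

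The replicate 2 libraries also held more autosomal peaks, 26327 in del/del and 26637 in del/fl against 17102 and 17564 in the replicate 1 libraries. The share of all autosomal covered length that lay inside the domains had the opposite order, with 40.2% and 31.9% for del/del against 37.8% and 30.1% for del/fl (exact two-sided permutation test, p = 0.667). Domains were fully covered at 20 and 110 of 706 in del/del and at 35 and 186 in del/fl, and consisted of exactly 1 peak at 249 and 366 against 273 and 454.

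The pileup, which is the authors' height of a peak in stacked tags, had a median over domains of 13.995 and 13.0 for del/del against 14.4 and 13.9 for del/fl. Other autosomal peaks had medians of 7.07 and 5.88 against 7.04 and 5.87, so broad domains were also high ones. Per 1000000 tags used, the domain medians were 0.995 and 1.01 for del/del against 1.08 and 1.18 for del/fl, and both del/fl libraries were the higher. As a rank within its own list, the median domain stood above 95.0006% and 96.9% of autosomal peaks in del/del and above 95.6% and 97.1% in del/fl, where the genotypes overlapped. Pileup is a value of the peak within its list, so no test was made.

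**Figure D2:**
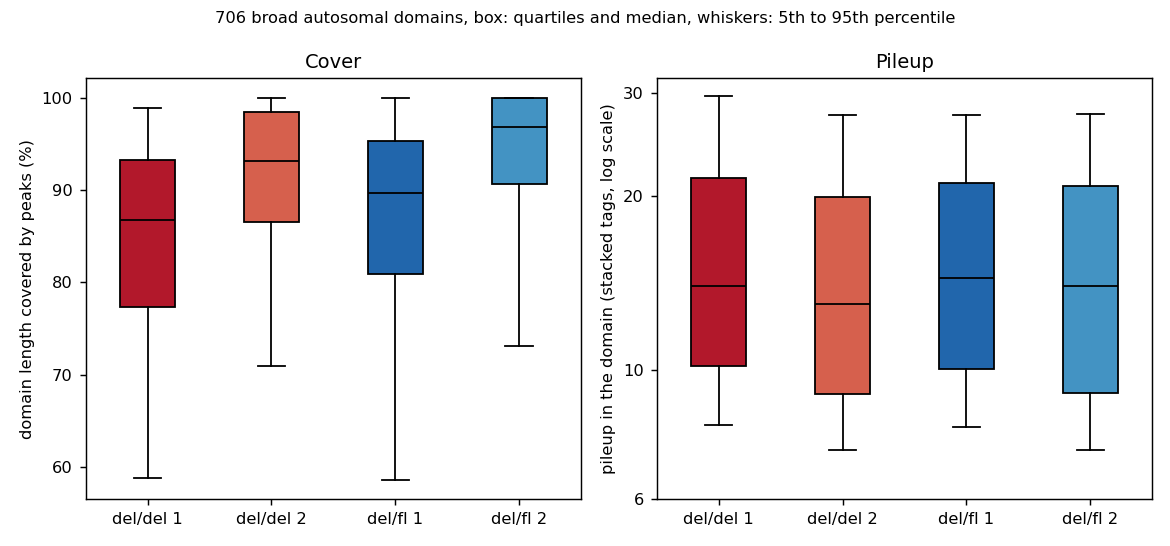
Cover (percent of domain length under peaks, left) and the authors' pileup (stacked tags, log scale, right) of the 706 domains in each library, with boxes from the lower to the upper quartile, a line at the median and whiskers from the 5th to the 95th percentile. Cover differs more between replicates of a genotype than between genotypes, with library medians of 86.7% and 93.2% for del/del against 89.7% and 96.9% for del/fl.

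Long domains were high ones. The 352 with a long peak in all libraries had median pileups of 19.7 and 18.7 for del/del against 19.5 and 19.1 for del/fl, while the 182 that were long in 1 library had 9.32 and 8.71 against 9.51 and 8.90. Domains with a protein-coding gene end had medians of 19.6 and 18.4 against 19.5 and 18.985, and the 125 that overlapped no gene had 10.2 and 9.27 against 9.67 and 8.90. The highest of all was chr9:3005783-3038294, which holds no annotated gene and lies 296937 bp from Alkbh8, with 254.8 and 222.1 for del/del against 258.5 and 271.0 for del/fl. Its fold enrichment over local background, the authors' value, was 1.42 and 1.84 against 1.44 and 1.33, far under the medians over domains of 6.00 and 5.72 against 6.33 and 6.45, so it was not among the most enriched domains. Its cover was 89.98% and 100% against 88.5% and 69.1%. The 5S ribosomal RNA array had pileups of 40.2 and 36.1 for del/del against 28.6 and 33.2 for del/fl. Its genes are near-identical copies, whose reads cannot be assigned to a copy with certainty. By the mean per 1000000 tags the next were the domains of Foxf1 and Mthfsd, with pileups of 34.6 and 35.0 against 34.2 and 33.2, and of Nkx2-3, with 35.0 and 33.0 against 34.1 and 33.4. Those of Trim71, a developmental timing gene, with 35.3 and 34.4 against 32.6 and 32.6, and of Skor1, with 34.1 and 33.9 against 32.0 and 33.7, came after them. At Trim71 both del/del libraries were the higher, and cover went the other way (91.9% and 94.3% against 96.0% and 100%).

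The comparison the design implies is whether these autosomal domains differed with the loss of Smchd1, beside the X chromosome on which SMCHD1 is best known to act. On X, unions of peaks chosen by the same rule number 2081, and their summed cover was 92.6% and 98.0% for del/del against 67.6% and 74.6% for del/fl, a difference of 24.2 points. Cover of these X unions minus that of the autosomal domains was 5.53 and 5.50 points in del/del and -21.4 and -19.6 points in del/fl. Unions that were long in del/del alone entered through the genotype in which they are high, so these values are a description. With X unions chosen in the replicate 1 lists and read in the replicate 2 lists, a choice made after seeing the data, cover reached 97.5% for del/del and 80.7% for del/fl, and the other way round it was 92.2% and 68.7%. Chosen in a del/fl list alone and read in the libraries of the other replicate number, it was 99.2% and 92.5%, and 97.5% and 86.2%. The median of the autosomal domains differed by -2.81 points, that of the X unions by 27.6 points, that of the 1890 other autosomal regions of at least 5 kb by -6.70 points, and that of all 6374 features tested by 18.7 points.

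At the level of single domains, the lower del/del value exceeded the higher del/fl value in 103 domains (14.6%) and the reverse held in 231 (32.7%). Among the other autosomal regions these shares were 9.74% and 26.9%, and over all features, most of them on X, 58.8% and 11.7%. limma, fitted over all features, called 21 domains more covered in del/del (2.97%) and 32 less covered (4.53%) at a Benjamini-Hochberg adjusted p of 0.05. The shares called were 2.38% and 4.18% among the other autosomal regions, and 37.2% and 1.74% over all features. The members' shares are thus near those of other autosomal regions. The calls rested on X being in the fit: with autosomes alone limma called 0 domains higher (0%) and 0 lower (0%), with the smallest adjusted p at 0.764. At an unadjusted p under 0.05 that fit had 19 higher (2.69%) and 33 lower (4.67%) domains, against 2.23% and 3.7% of all 2596 autosomal features. X in the fit was not enough, since with X kept and other regions taken down to 2500 bp limma also called 0 domains. The calls also changed with the library left out. Such a fit leaves 1 library in a genotype, so its counts of calls are not given.

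**Figure D3:**
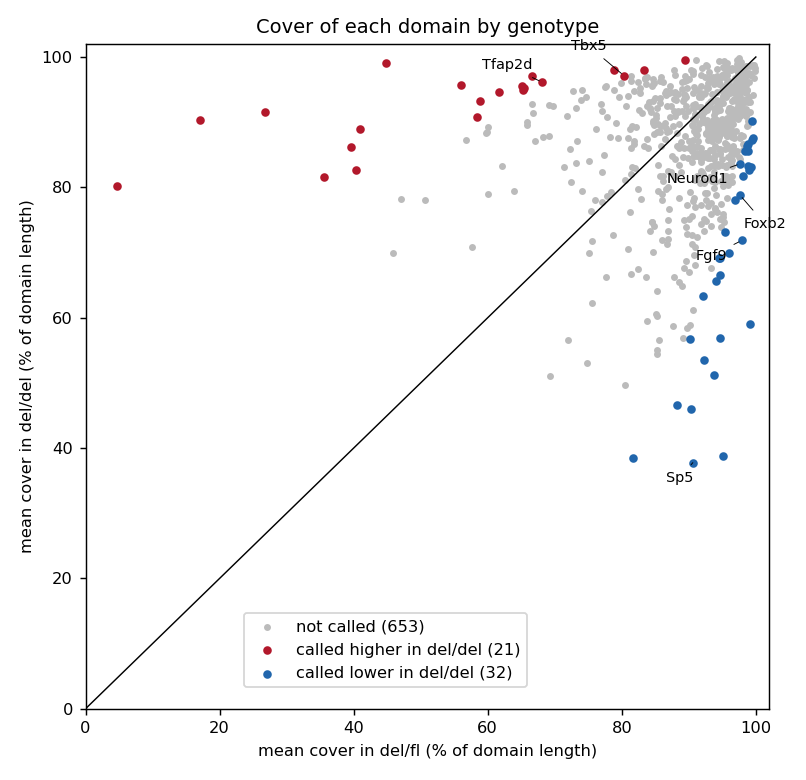
Mean cover of each of the 706 domains in del/fl (horizontal axis) and del/del (vertical axis), in percent of domain length, with 21 domains called higher in red and 32 called lower in blue by limma and a line of equality. Most domains sit in the upper right corner, and the called ones lie far from the line on both sides.

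Most calls fell on domains that the length rule took from 1 genotype. In 40 of the 53 the long peaks came only from the genotype with the higher cover, 17 of the 21 higher and 23 of the 32 lower, so that their extent was set by the libraries that are high there. For these 40 the values below are a description and no p is given. Of the 352 domains with a long peak in all 4 libraries, 4 were called higher and 7 lower.

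The domains called higher had a median pileup of 9.32 and 8.82 for del/del against 7.95 and 7.36 for del/fl, and 4 of the 21 held a protein-coding gene end, against 378 of all 706 domains. The largest difference was at chr5:15557371-15569278, which lies 8015 bp from Gm21083 and was covered over 60.5% and 100% for del/del against 5.38% and 3.96% for del/fl. The neighbouring domain at chr5:15544155-15555354 had 80.7% and 100% against 9.54% and 24.5%. In both, 1 del/del library was fully covered by its own long peak and both del/fl libraries were low, with differences in means of 75.6 and 73.3 points. A domain in the noncoding gene Gm30340 (chr3:17318167-17331320) had 99.0% and 99.2% against 35.7% and 54.0%, and here both del/del libraries carried a long peak. Cover in a domain within A830018L16Rik (chr1:11739879-11753026) was 83.2% and 100% against 30.3% and 23.4%. Others lay 78107 bp from Fam98a (77.8% and 100% against 37.0% and 45.1%) and within Asic2, a neuronal acid-sensing channel gene (72.3% and 100% against 35.7% and 43.5%). They also lay within Casz1, a zinc finger gene of heart and neurons (100% and 91.0% against 58.6% and 71.7%), and 74735 bp from Psmd7.

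Near Msx1, a homeobox gene of limb and craniofacial tissue, a domain 39388 bp away was 91.5% and 100% covered for del/del against 54.4% and 57.7% for del/fl and was long in del/del alone. The domain after it (chr5:37880582-37908169), long in all 4 libraries, had 89.1% and 100% against 58.1% and 65.3% and was called higher (32.8 ± 12.1 points, SE, limma, adjusted p = 0.0281). The domain over Msx1 itself had 97.4% and 99.3% against 88.7% and 95.2% and was not called (limma, adjusted p = 0.146). Msx1 and the second of these domains were chosen after their values were seen. The long chr13 domain of Gm36079 and Gm21188 had 96.7% and 99.3% against 81.0% and 85.6% and was called higher with long peaks in all libraries (14.7 ± 5.96 points, SE, limma, adjusted p = 0.0402). It was made of 5 and 2 peaks in del/del and of 21 and 17 in del/fl, at pileups of 24.1 and 23.7 against 23.7 and 21.6. Among list members, Tbx5, a heart and forelimb T-box gene, was also called with long peaks in all libraries (94.2% and 100% against 78.4% and 82.3%, limma, adjusted p = 0.0492). Tfap2d, an AP-2 transcription factor gene named after its values were seen, had 95.03% and 97.2% against 71.8% and 64.6%, with long peaks in del/del alone. At both genes the genotypes did not overlap, which at Tfap2d follows in part from how its domain was chosen. The Tbx5 call, like all calls here, was lost with autosomes alone and with other regions taken down to 2500 bp. At both genes the highest del/fl library still kept most of the domain.

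Of the 32 domains called lower in del/del, 14 held a protein-coding gene end, against 378 of all 706, and they had median pileups of 10.8 and 9.44 for del/del against 11.3 and 10.5 for del/fl. The largest difference among them was in a domain inside Skap2 (chr6:51889287-51899964), which was 19.8% and 57.8% covered for del/del against 90.2% and 100% for del/fl (-56.3 points). Next came Sp5, a Wnt target and zinc finger gene, in chr2:70470877-70482141, with 24.1% and 51.4% against 81.2% and 100% (-52.8 points). In both the long peak was that of del/fl replicate 2, which is at 100% by construction. Sp5 was the only one of the named domains past the threshold whose difference changed sign in any alternative setting, at 10.6 points with peaks of a −log10 q of at least 5. A domain between Hoxd and Mtx2 (chr2:74792354-74804237), the next domain beyond the Hoxd one, had 53.4% and 64.8% against 100% and 98.1%. The Hoxd domain itself had 94.3% and 98.0% against 98.0% and 100%, where the genotypes overlapped.

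Fgf9, a growth factor gene of lung and gonad, was called lower in chr14:58068616-58079825, with 67.3% and 76.5% for del/del against 98.1% and 97.9% for del/fl (-26.1 points) and long peaks in del/fl alone. Its pileup was also lower, at 14.9 and 14.1 against 16.8 and 16.1. Domains inside Erbb4, a neuregulin receptor gene (40.3% and 51.6% against 80.7% and 100%), and Sycp2, a meiotic chromosome axis gene (47.9% and 65.9% against 93.9% and 95.6%), were called too. So were those inside Plag1, a growth regulator (77.3% and 88.9% against 99.6% and 99.0%), and at Gm32061, 4266 bp from the imprinted gene Ndn (45.5% and 56.9% against 92.8% and 94.8%). In each of these the long peaks came from del/fl alone, so high del/fl cover follows from how the domains were chosen. Among the list members, Neurod1, a proneural bHLH gene, was called lower with long peaks in all libraries (84.0% and 83.3% against 96.3% and 99.1%, limma, adjusted p = 0.0478). So were Foxb2 (81.4% and 76.2% against 99.0% and 96.2%, adjusted p = 0.0373), Foxd4 (85.4% and 87.9% against 98.4% and 99.4%) and Irx6 (78.6% and 85.0% against 100% and 96.1%). Prdm14 was called with long peaks in del/fl alone, and these 4 were singled out after their values were seen. Fgf5 had a mean difference of -30.1 points, larger in size than that of Fgf9 (52.9% and 57.3% against 70.5% and 100%) and was not called.

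**Figure D4:**
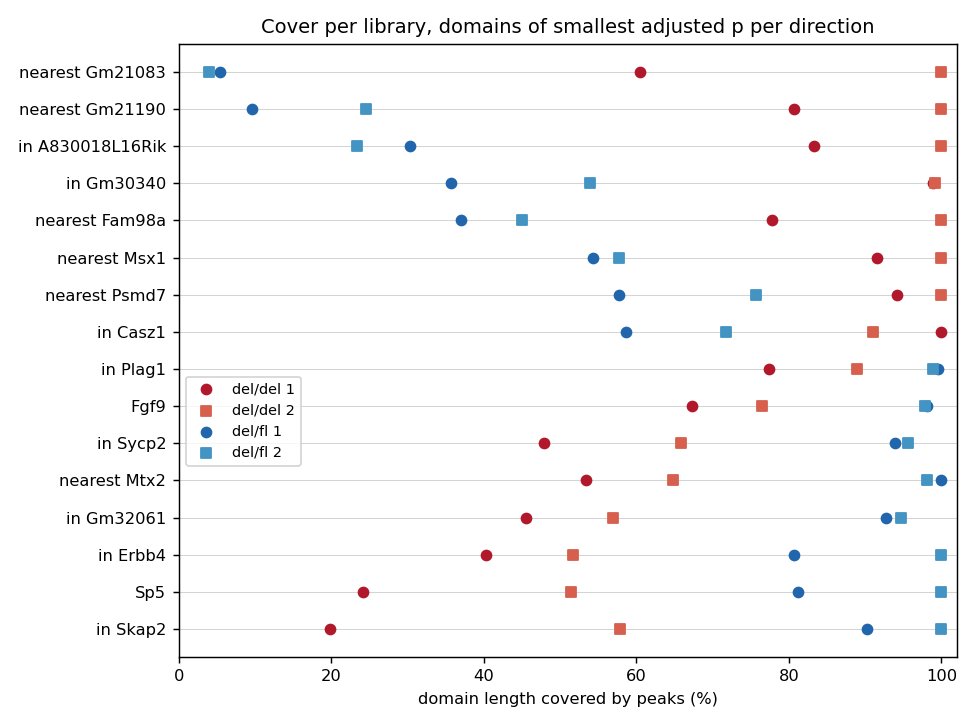
Cover in each library (percent of domain length) of the 8 domains with the smallest adjusted p per direction, named by a gene inside, the gene they lie in or the nearest protein-coding gene. The upper 8 have both del/del libraries (red) above both del/fl libraries (blue), the lower 8 the reverse, and the replicates of a genotype can lie far apart, as in Skap2 with 19.8% and 57.8%. In every domain shown the long peaks came only from the genotype with the higher cover.

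By gene family, few domains were called. None of the 5 domains of Hox genes was, and their median difference was 0.60 points. The Hoxb13 domain had 97.4% and 98.5% for del/del against 89.2% and 91.6% for del/fl, and the Hoxb domain 99.0% and 99.97% against 97.0% and 97.4%. Both had their genotypes apart in the same direction, while Hoxc and Hoxd overlapped and Hoxa had the opposite order. NK-like and Dlx genes filled 41 domains, of which 8 were higher and 17 lower without overlap and 0 were called. Of the 41 domains of paired-like, LIM, Iroquois, POU and related genes, 2 were higher and 10 lower without overlap, with 1 called lower (Irx6). In forkhead domains the counts were 4 and 5 of 16, with 2 called lower, and in bHLH domains 1 and 9 of 17, with 1 called lower. Zinc finger regulators had 0 higher and 9 lower of 15, with 1 called lower, and Wnt genes 0 and 3 of 6. Of the imprinted genes, Grb10 had 82.0% and 100% against 72.2% and 71.5% (adjusted p = 0.125), and 2 of 5 domains were higher without overlap. These are to be read against the 14.6% and 32.7% of all domains.

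The sign of most family medians turned with the scaling. In points, they were -2.07 for NK-like and Dlx genes, -5.96 for bHLH genes, -8.17 for Fgf and hedgehog genes and -7.44 for Wnt genes, against -2.81 for all domains. After division by the percent of the autosomes that each library's peaks cover, the median of all domains was 4.65 and those 4 were 5.92, 1.41, -0.02 and -0.68. Domains with a protein-coding gene end had a median of -3.60 points, with 41 higher and 137 lower of 378 without overlap, and those that overlap no gene had one of 0.41 points, with 31 and 31 of 125. After the same division these medians were 4.02 and 6.98. No direction is therefore given to the families. The 21 domains called higher and the 32 called lower all kept their sign under that division, but only 18 of the 53 were still called. Of the differences, 13 of the lower and 0 of the higher shrank by more than 1.5 times. The division moved differences upward, as the median of all domains shows.

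The edges of the domains were compared next. The edge in a library is the outermost base of any of its peaks that overlap the domain, and a positive shift means that it lies further out in del/del. For 2 libraries of the same genotype the median distance between their edges was 0.486 kb in del/del and 0.418 kb in del/fl, and for the 4 pairs of libraries of different genotype it was 0.471 to 0.533 kb. Between 69.8% and 77.4% of edges lay within 1 kb of each other in the 6 pairs, and 9 to 19 of 1412 were more than 5 kb apart. Edges of different genotype were thus about as far apart as those of replicates.

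**Figure D5:**
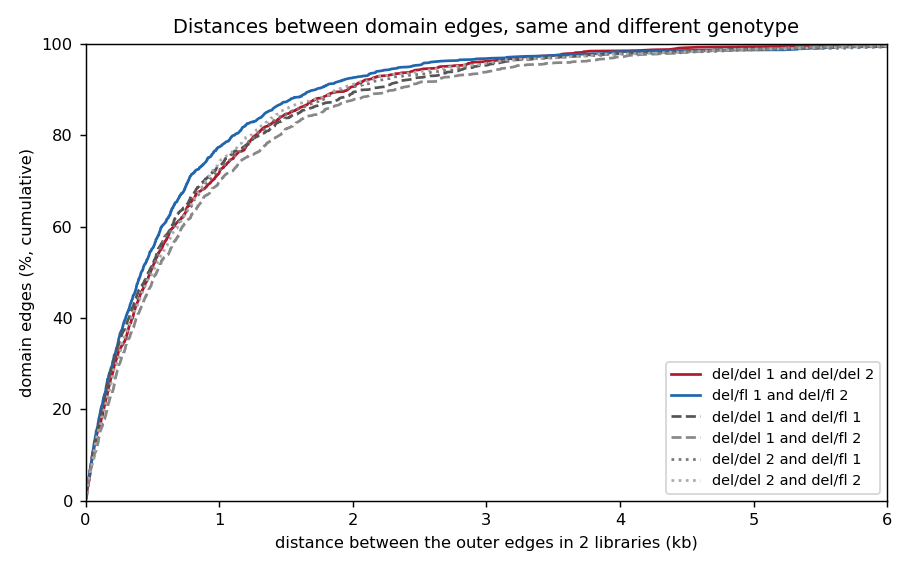
Cumulative percent of the 1412 domain edges by the distance between their positions in 2 libraries (kb), for the 2 pairs of the same genotype (solid lines) and the 4 pairs of different genotype (broken lines). The curves nearly coincide, with 69.8% to 77.4% of edges within 1 kb.

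limma called 0 of 1412 edges outward (0%) and 0 inward (0%) at an adjusted p of 0.05, and 0% of all 12172 edges tested and of the 3732 edges of other autosomal regions. At an unadjusted p under 0.05, 29 were outward (2.05%) and 52 inward (3.68%), against 5.28% and 0.715% of all edges tested. Both del/del libraries lay outside both del/fl libraries at 185 edges (13.1%) and inside at 346 (24.5%). Over other autosomal regions these shares were 12.7% and 22.5%, and over all features 33.9% and 12%. With autosomes fitted alone, limma called 11 of the 1412 edges outward and 20 inward. The share over all autosomal edges was not computed for that fit, so these counts are not read as a result about the domains.

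In the fit over all features, none of the edges named here was called (limma, adjusted p from 0.594 to 0.771). The largest outward shift without overlap was on the right of the domain of Tfap2b (chr1:19203303-19252451), an AP-2 gene of neural crest and kidney. There the edge lay at 0 and 0.307 kb from the end of the union in del/del and at -7.895 and -6.248 kb, short of it, in del/fl, a shift of 7.22 ± 1.99 kb (SE). The right edge of chr5:15557371-15569278, near Gm21083, followed at 6.94 kb, then the left edge of the domain of Lmx1b, a limb and midbrain LIM homeobox gene (5.09 kb), and the right edge of that of Wnt1 and Ddn (4.86 kb). Hand2, a heart and limb bHLH gene, had the largest inward shift, on the left of chr8:57300475-57360353. Its del/fl peaks ran 6.34 and 5.87 kb beyond the union and those of del/del 1.84 and 0 kb, a shift of -5.18 ± 8.18 kb. A domain within Cadps, a vesicle priming gene, and one 29036 bp from Six6 moved by -4.88 and -4.52 kb, and the domains of Scn4b, Sim1 and Pkp1 by -4.17, -4.17 and -4.11 kb. A position beyond the union arises where a shorter peak of that library crosses the end of the long one.

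The longest domains that overlap no gene were chr9:122610505-122660810 (50306 bp), chr7:121178311-121217239 (38929 bp, 15218 bp from Otoa), the high chr9 domain described above (32512 bp) and chr12:56434764-56466714 (31951 bp). The last ends just before the Nkx2-1 domain and had 87.6% and 95.1% cover for del/del against 57.0% and 76.4% for del/fl. Nkx2-1 had 95.9% and 98.8% against 87.6% and 93.7%, and the Nkx2-9 domain further on had 95.9% and 97.4% against 87.1% and 93.0%. These 3 neighbours on chromosome 12 had their genotypes apart in the same direction and none was called (limma, adjusted p from 0.0736 to 0.218), and at Pax9, next to them, the genotypes overlapped. Nkx2-9 was chosen after its values were seen.

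At the length threshold the shortest domains measured 10013 bp (over Htr6, a serotonin receptor gene), 10014 bp (in Gm960) and 10053 bp (over Lbx2). The longest peaks just outside it measured 9998, 9988 and 9978 bp, and all 3 were from del/fl replicate 2. In the 3 shortest domains del/fl replicate 2 was likewise 100% covered, while the other libraries ranged from 40.8% to 88.9%.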

How the data were processed

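H3K27me3 was measured by ChIP-seq in 2 del/del and 2 del/fl libraries. The submitters' processing notes name bcl2fastq, Bowtie 0.12.9 and the mm10 build. Per the file headers, the authors called broad peaks in each library alone against its whole-cell extract with MACS2 2.1.0.20140616, at a q cutoff of 0.05, keeping 1 tag per position and sampling the control down to the ChIP. The deposited pileup is a signal in stacked tags that is not scaled for depth, the deposited fold enrichment is a ratio to local background, and the deposited −log10 p-value and −log10 q-value belong to each peak. Tags used were 11793402 to 14064030 per library, and the replicate 2 libraries had the fewest tags and the most autosomal peaks. Whether depth limited what was called was not tested. The peak lists do not separate alleles.

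Peaks of at least 10000 bp were merged where they shared at least 1 bp. Cover and edges were computed per library and tested with limma 3.58.1 (R 4.3.3, trend and robust variance, no block) over the domains, X unions made by the same rule and other regions of at least 5 kb, 6374 in all, with Benjamini-Hochberg adjustment. No p is given for called domains whose long peaks came from 1 genotype alone. Single totals were tested by exact permutation. The computation used Python 3.11.15, and both the interval code and limma were tested on simulated data. Genes and promoters were matched by position to RefSeq tables of GRCm38.p6.

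Domains were named by fixed rules: the 12 longest, the 6 of highest pileup, per direction the 6 of largest non-overlapping difference and up to 8 called, the 6 largest edge shifts per direction, the 4 longest without a gene and the 3 on each side of the length threshold. Up to 6 genes per list were named, longest domain first. The members and gene lists were chosen with earlier results of these data known.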

Additional observations from a re-analysis of the deposited data

How the results depend on the processing

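Calls per domain depended on the setting, and each pair gives domains called higher and lower. The main rule took 706 domains, the rule of 15000 bp 357 and joined peaks 1543, so the totals differ. The counts below stand without the share over all features in the same setting, so a larger count is not read as more change. There were 0 and 0 with peaks of −log10 q of at least 5, with autosomes alone, with other regions down to 2500 bp and with peaks joined over 3000 bp. There were 6 and 2 without trend and robust fitting, 13 and 6 after division by covered percent, and 45 and 72 with other regions of at least 10000 bp. Peaks of at least 15000 bp gave 13 and 9, and the 352 domains long in all libraries, a setting chosen after seeing the data, 6 and 12. Leaving out 1 library gave 0 to 53 and 0 to 13. With the replicate number as a block there were 49 and 73, and 2 edges called outward and 1 inward. The labels do not say whether that number marks a shared line or batch.

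Edges called were 7 outward and 8 inward with joined peaks, and 11 and 20 with autosomes alone. These and the counts that follow also stand without the share over all features in the same setting. Domains without overlap between genotypes were 57 higher and 121 lower at 15000 bp, 184 and 390 with joined peaks and 47 and 126 for domains long in all libraries, and 65 were higher with stricter peaks. Edges without overlap were 97 outward and 184 inward, 392 and 646, and 86 and 185 in those 3 settings, and 93 were outward with stricter peaks. Fewer or more domains enter at 15000 bp, with joined peaks and for domains long in all libraries, and for the other settings the cause was not tested.

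Leaving out 1 library moved the difference in summed cover between -4.52 and 0.943 points, reversed without del/del replicate 1 (0.943) and del/fl replicate 2 (0.808). It moved that in the share of autosomal cover between -2.11 and 6.25, reversed without the same libraries (-2.11 and -1.78). The Sp5 domain reversed to 10.6 points with stricter peaks. By its longest peak the median pileup in del/fl replicate 1 was 14.9. Protein-coding genes wholly inside numbered 235. Of 672 values for 52 named domains under alternatives, 496 kept their direction and side of the threshold or moved within the replicate spread. A further 129 fell below the threshold. Only domains called in the main setting could do so, so the 129 are to be read against those domains and not against all 672 values. With 2 libraries per genotype and no input reads used here, small shifts were not detectable.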
